A study of Mus musculus with 16 samples.

Results

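The cytochrome P450 family 2 (Cyp2) genes were followed through acetylation of histone H3 lysine 27 (H3K27ac), a chromatin mark of active promoters and enhancers, in mouse liver. Members were chosen by symbol, Cyp2 followed by a letter and a number, and by position. A region of the deposited count table counted as a member when its midpoint lay inside such a gene, or in no protein-coding gene and within 50 kb of it as the nearest protein-coding gene on mm10. Of 52645 regions, 260 were members, and they belonged to 41 of the 11471 genes that received any region. Another 6 Cyp2 genes, Cyp2b23, Cyp2c65, Cyp2j8, Cyp2j12, Cyp2j13 and Cyp2t4, received none. Chromatin immunoprecipitation and sequencing (ChIP-seq) compared the livers of wild-type mice (WT) with those of mice lacking NCoR1 (KO), all labelled with a C57BL/6J background. The mice ate either chow or PTU/LID, a low-iodine diet with 0.15% propylthiouracil (PTU), from 6 weeks of age for 3 weeks, and all livers were taken on day 21. Propylthiouracil blocks thyroid hormone synthesis, and NCoR1 is a corepressor that unliganded thyroid hormone receptors and other nuclear receptors recruit with histone deacetylase 3. Each of the 4 groups (WT on chow, WT on PTU/LID, KO on chow, KO on PTU/LID) had 3 H3K27ac libraries. The labels say neither how or in which cells NCoR1 was deleted, nor the sex of the mice, and nothing in them states that the libraries come from different animals. The p-values therefore refer only to the spread among libraries, which may be technical. Libraries are lettered in the order in which values are printed: A, B and C (titled Chow_WT_27ac_96, Chow_WT_27ac_99 and Chow_WT_27ac_106) are WT on chow, and D, E and F (Ptulid_WT_27ac_135, Ptulid_WT_27ac_155 and Ptulid_WT_27ac_280) are WT on PTU/LID. G, H and I (Chow_NCoRKO_27ac_122, Chow_NCoRKO_27ac_146 and Chow_NCoRKO_27ac_190) are KO on chow, and J, K and L (Ptulid_NCoRKO_27ac_211, Ptulid_NCoRKO_27ac_232 and Ptulid_NCoRKO_27ac_239) are KO on PTU/LID.

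Cyp2 enzymes are heme proteins of the endoplasmic reticulum that take electrons from cytochrome P450 reductase and insert oxygen into drugs, steroids, fatty acids and retinoids. Most mouse members lie in clusters of close copies, and their transcription in liver is known to depend on nuclear receptors such as CAR and PXR, on hepatocyte factors and, for sex-biased members, on the pattern of growth hormone acting through STAT5 and BCL6. Cyp2e1 and several Cyp2c genes are known from hepatocytes near the central vein, and Cyp2f2 from those near the portal vein.

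The stretches before the start sites of 7 genes are shown because the acetylation at or next to them changed, or because they are near copies of one that did. They are the 250 bases before the start listed by RefSeq on GRCm38.p6, the assembly of mm10, written 5′ to 3′ on the gene's strand. Capitals mark matches to TTGCNNAA (a C/EBP site) on either strand. They also mark AGGTCA, a motif of nuclear receptors, on either strand. On the gene strand they mark the core promoter element TATAA. A window without capitals holds none of these letters, nor TTCNNNGAA, a STAT5 site. The windows lie at chr15:82452127-82452376 on the plus strand for Cyp2d9, at chr15:82407195-82407444 and chr15:82394023-82394272 on the minus strand for Cyp2d10 and Cyp2d11, at chr7:26306942-26307191 and chr7:26835089-26835338 on the plus strand for Cyp2a4 and Cyp2a5, at chr19:39510572-39510821 on the plus strand for Cyp2c39 and at chr19:39812815-39813064 on the minus strand for Cyp2c40. Cyp2c39 has 2 listed starts, and the window belongs to the second, since no member region overlapped the window of the first.
Cyp2d9: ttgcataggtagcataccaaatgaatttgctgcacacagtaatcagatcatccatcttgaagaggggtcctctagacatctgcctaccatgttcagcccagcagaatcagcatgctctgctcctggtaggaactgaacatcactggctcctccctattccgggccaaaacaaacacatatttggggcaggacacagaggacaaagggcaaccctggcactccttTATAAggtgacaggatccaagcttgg
Cyp2d10: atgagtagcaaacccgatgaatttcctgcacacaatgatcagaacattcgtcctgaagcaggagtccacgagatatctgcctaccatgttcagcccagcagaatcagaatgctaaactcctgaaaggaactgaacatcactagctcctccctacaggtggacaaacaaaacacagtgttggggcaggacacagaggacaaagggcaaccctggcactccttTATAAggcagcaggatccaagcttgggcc
Cyp2d11: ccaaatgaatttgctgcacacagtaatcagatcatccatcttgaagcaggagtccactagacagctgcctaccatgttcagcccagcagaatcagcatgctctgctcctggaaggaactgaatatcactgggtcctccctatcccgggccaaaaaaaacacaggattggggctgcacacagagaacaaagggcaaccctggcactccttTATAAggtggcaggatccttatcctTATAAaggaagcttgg
Cyp2a4: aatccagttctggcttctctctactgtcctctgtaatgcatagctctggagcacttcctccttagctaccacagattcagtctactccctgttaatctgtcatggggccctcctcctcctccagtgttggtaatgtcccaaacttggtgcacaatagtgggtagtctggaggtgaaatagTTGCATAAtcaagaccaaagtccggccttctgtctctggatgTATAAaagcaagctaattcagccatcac
Cyp2a5: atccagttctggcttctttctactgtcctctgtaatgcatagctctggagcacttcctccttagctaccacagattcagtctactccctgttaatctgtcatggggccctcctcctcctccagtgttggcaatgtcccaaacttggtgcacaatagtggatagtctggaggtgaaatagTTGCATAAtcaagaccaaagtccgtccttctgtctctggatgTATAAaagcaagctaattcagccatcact
Cyp2c39: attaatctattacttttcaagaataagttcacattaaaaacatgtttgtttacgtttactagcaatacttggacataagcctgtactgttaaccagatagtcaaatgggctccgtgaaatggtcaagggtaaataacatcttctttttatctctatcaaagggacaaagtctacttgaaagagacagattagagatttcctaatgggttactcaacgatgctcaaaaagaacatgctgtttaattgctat
Cyp2c40: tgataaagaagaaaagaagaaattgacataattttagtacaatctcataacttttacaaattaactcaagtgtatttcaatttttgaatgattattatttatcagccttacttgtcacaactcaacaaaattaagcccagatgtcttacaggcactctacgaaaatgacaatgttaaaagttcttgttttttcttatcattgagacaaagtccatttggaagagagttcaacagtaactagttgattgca

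Cyp2d9 and Cyp2d10 were identical over 82.28% of the alignment length, gaps counted, and Cyp2d9 and Cyp2d11 over 82.33%, with TATAA in each. Cyp2a4 and Cyp2a5 shared 97.61%, and the window pair of Cyp2b9 and Cyp2b13 99.2%. Of 143 pairs within subfamilies, 3 were over 90% identical by this measure, the last being Cyp2c68 and Cyp2c69 at 91.34%. Windows shifted against each other score lower, since their overhangs count as gaps. Cyp2c40 and Cyp2c69 had 217 identical bases at 77.5%, Cyp2c40 and Cyp2c68 207 at 73.14%, and Cyp2d9 and Cyp2d11 219 at 82.33%. Reads from such copies can be placed at either one, so values of Cyp2a4, Cyp2a5, Cyp2b9, Cyp2b13, Cyp2c68 and Cyp2c69 are uncertain as to which copy they describe. Those of Cyp2c40, Cyp2d9, Cyp2d11 and other members with a lower score may be uncertain too. RefSeq gave a window for 40 of the Cyp2 genes, 42 windows in all. TATAA stood in 47.62% of the 42 Cyp2 windows and in 16% of the 32851 windows of all genes. TTGCNNAA stood in 28.57% and 9.564%, AGGTCA in 23.81% and 14.02%, and TTCNNNGAA in 4.762% and 7.02%. These are matches of letters, not tests of binding.

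Total counts per library ran from 2965505 to 7416187, and 0.717% to 17.2% of them lay on the mitochondrial chromosome, the highest share in library H. Libraries D and J, both from PTU/LID, lay nearer to the chow libraries than their group mates on the first principal component. That component was computed from the regions outside the mitochondrial chromosome that passed a filter on low counts. Counts were also computed without libraries D, H and J, a choice made after seeing the data. Over the 6 regions of Ncor1, the targeted gene, H3K27ac was 62.6, 58.1 and 45.0 CPM (counts per 1000000 counts) in WT fed chow, 63.2, 50.5 and 50.4 in WT fed PTU/LID, 52.2, 64.5 and 45.7 in KO fed chow and 60.1, 54.9 and 47.5 in KO fed PTU/LID. The 4 groups overlapped, but acetylation of the locus does not measure whether the gene was deleted, so the genotype labels were not checked by it. All 12 hepatocyte markers had regions, with summed levels of 3859 to 4894 CPM in WT fed chow, 3778 to 5399 in WT fed PTU/LID, 4368 to 4757 in KO fed chow and 5431 to 5733 in KO fed PTU/LID. Markers of endothelial cells (11 of 12 with regions) summed to 1098 to 1165, 917 to 1074, 868 to 895 and 811 to 895 CPM in the same order. Those of Kupffer cells (4 of 10) gave 51.2 to 70.8, 36.4 to 37.3, 35.4 to 40.5 and 35.3 to 49.5, those of stellate cells (6 of 10) 71.5 to 87.4, 56.1 to 73.5, 44.0 to 55.2 and 44.1 to 66.2, those of lymphocytes (2 of 8) 99.1 to 103, 50.2 to 67.9, 105.9 to 143 and 74.2 to 75.7, and those of cholangiocytes (2 of 6) 36.4 to 49.4, 49.97 to 70.6, 45.9 to 54.8 and 44.1 to 59.9. The defining markers Adgre1 and Clec4f (Kupffer cells), Kdr (endothelium), Lrat (stellate cells), Cd3e (lymphocytes) and Krt19 and Epcam (cholangiocytes) had no region. Endothelial and Kupffer cell markers were thus higher in all 3 WT libraries on chow than in the other 9. Hepatocyte markers were higher in all 3 KO libraries on PTU/LID than in the other 9. Their median log2 fold change was 0.23 and 0.19 for the diet in WT and in KO. For KO against WT it was 0.14 on chow and 0.16 on PTU/LID. Over all genes these medians were -0.02, -0.01, -0.01 and -0.02. The part of these cell type markers in the Cyp2 results was not tested. In bulk liver, fewer cells with a mark and less of the mark per cell cannot be told apart. The region at the Xist start, chrX:103481741-103483151, carried 25.1 to 39.6 CPM in all 12 libraries, and none of the 2 regions on chromosome Y lay in Ddx3y, Eif2s3y, Kdm5d or Uty.

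Member regions were 200 to 3803 bp long with a median of 576.5 bp. Of the 260, 101 lay inside a Cyp2 gene and 159 outside, 29 lay inside a pseudogene or non-coding gene, and 38 lay within 1 kb of a listed start. Every member region and every member gene passed the filter on low counts. Together the Cyp2 genes held 0.552% to 0.718% of all gene-assigned counts. The 14 Cyp2c genes carried 71 regions, the 8 Cyp2d genes 50, the 4 Cyp2a genes 44, the 4 Cyp2b genes 43 and the 4 Cyp2j genes 13. Cyp2f2 had 15 regions and Cyp2e1 11, and the single genes Cyp2g1, Cyp2r1, Cyp2s1, Cyp2u1 and Cyp2w1 had 2 or 3 each.

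Per kb of region, Cyp2j (31.8 CPM per kb, mean of 12 libraries), Cyp2d (30.8), Cyp2b (30.8), Cyp2e (30.4), Cyp2r (30.2) and Cyp2c (30.1) lay close together, and Cyp2w (19.5) and Cyp2f (18.7) were lowest. Between single genes the spread was wider. Cyp2d22, a CYP2D gene expressed in many tissues, led the Cyp2d genes and the family with 41.2 CPM per kb. Cyp2j5, an arachidonic acid epoxygenase of liver and kidney, followed among the Cyp2j genes with 39.3. The highest in the other multigene subfamilies were Cyp2c38 with 37.4, Cyp2b13, a female-predominant liver gene, with 33.7 and Cyp2a22 with 27.9. Cyp2c66 had the lowest level of the family, 10.2 CPM per kb.

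The strongest single region of the family, by mean CPM over the libraries, lay at the Cyp2d22 locus, chr15:82377487-82380262, inside the gene, with 223 CPM. Its 4 group means were 199 ± 46.9 (SD, n = 3) in WT fed chow, 234 ± 41 in WT fed PTU/LID, 210 ± 3.90 in KO fed chow and 248 ± 51.5 in KO fed PTU/LID. In the Cyp2b cluster it was chr7:26053925-26057236, 5915 bp upstream of the Cyp2b13 start, with 124 CPM, and in the Cyp2j cluster chr4:96661874-96664171 inside Cyp2j5, with 115 CPM. The strongest Cyp2c region, chr19:39647676-39650281, covered the start of Cyp2c67 with 110 CPM, and the strongest of Cyp2e1, the ethanol and acetaminophen oxidase, was chr7:140763842-140766332 inside the gene with 108 CPM. For Cyp2a it was chr7:26302801-26305819, 2882 bp upstream of Cyp2a4, with 82.2 CPM. The remaining subfamilies had lower leading regions: 33.8 CPM at chr7:27124538-27125898 inside Cyp2f2, 29.9 at chr7:26799966-26801100 outside Cyp2g1, 20.6 at chr5:139358194-139359331 inside Cyp2w1, 20.0 at chr7:114563142-114563758, 478 bp upstream of Cyp2r1, 17.6 at chr3:131283558-131284266 outside Cyp2u1 and 7.65 at chr7:25848240-25848623 outside Cyp2s1.

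Summed over each subfamily, Cyp2a, Cyp2b and Cyp2c were higher in the KO libraries than in the WT libraries of the same diet, and Cyp2d was higher on PTU/LID in WT. The 4 Cyp2a genes summed to 871, 862 and 948 CPM in WT fed chow, 628, 1022 and 956 in WT fed PTU/LID, 990, 1203 and 1247 in KO fed chow and 1178, 1271 and 1311 in KO fed PTU/LID. Both KO groups lay above their WT counterparts without overlap on chow, and on PTU/LID as well, with library D the lowest of all. Cyp2b gave means of 1149 ± 46.3 (SD, n = 3), 1053 ± 59.3, 1270 ± 27.8 and 1323 ± 56.7 CPM in the same order of groups, and Cyp2c 1651 ± 70.2, 1528 ± 172, 1849 ± 91.9 and 1776 ± 125 CPM. In both subfamilies the KO libraries exceeded the WT libraries on either diet. Cyp2d had another order, with 1157 ± 22.4, 1338 ± 43.1, 1213 ± 26.6 and 1314 ± 128 CPM. All 3 WT libraries on PTU/LID were above all 3 WT libraries on chow there, whereas the KO groups overlapped between diets. Cyp2e1 had 463 ± 83.4, 482 ± 128, 495 ± 26.6 and 403 ± 83.1 CPM, and Cyp2j 321 ± 28.7, 313 ± 33.4, 316 ± 24.9 and 382 ± 31.5. These sums are over chosen members, so they are given without a test. Under the scaling of the regions, the Cyp2a and Cyp2b orders stood on both diets, while the Cyp2c groups overlapped on PTU/LID (1505 to 1697 CPM in KO and 1258 to 1530 in WT). With no scaling factors beyond the total, Cyp2c overlapped on both diets and Cyp2b on chow. The Cyp2d order between diets in WT stood under each of these scalings. So did those of Cyp2u (33.8 to 37.4 CPM on PTU/LID against 20.8 to 29.9) and Cyp2w (28.4 to 33.6 against 21.2 to 22.5). Cyp2s was lower there (11.4 to 15.3 against 16.6 to 19.2), also under each. With gene and with region scaling, Cyp2f and Cyp2j were higher in KO on PTU/LID, and Cyp2g and Cyp2r in KO on chow, without overlap. These patterns were therefore not particular to Cyp2a, Cyp2b, Cyp2c and Cyp2d. Scaling by the regions moved the median log2 fold change of all genes for KO against WT on PTU/LID from -0.02 to -0.07.

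**Figure D1:**
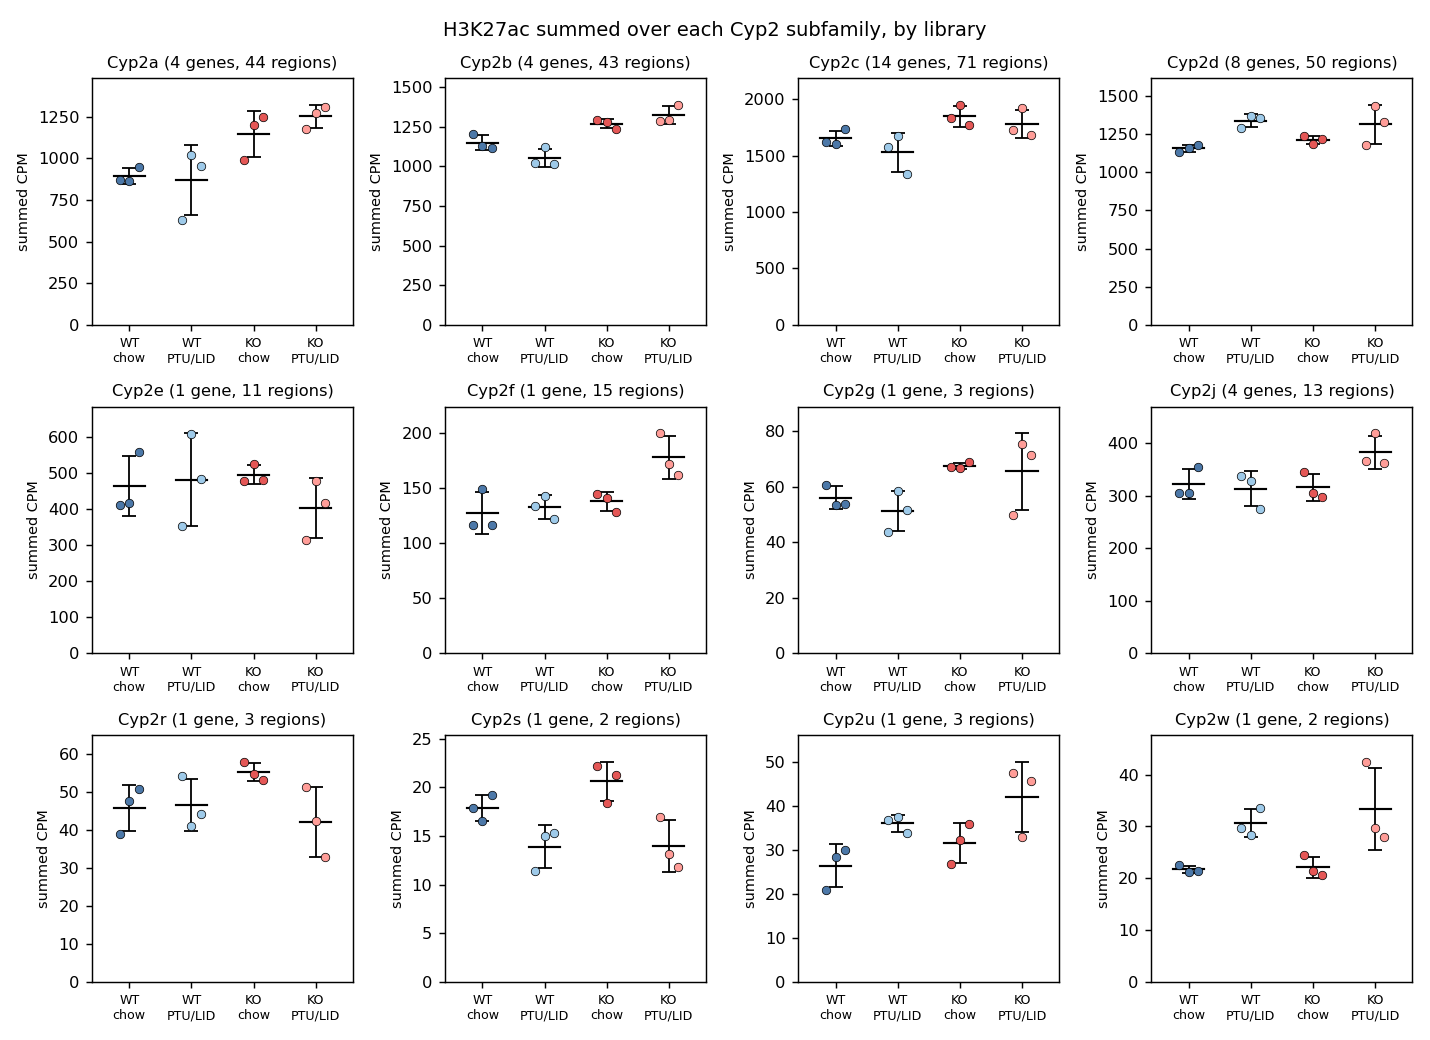
Summed H3K27ac (CPM, linear axes from 0) of the 12 Cyp2 subfamilies in each group. Points are the 3 libraries, the line and bar the mean and SD; with the gene scaling, for Cyp2a, Cyp2b and Cyp2c the KO libraries lie above the WT libraries of the same diet (Cyp2c on both diets and Cyp2b on chow overlap with no scaling factors, and Cyp2c on PTU/LID also with region scaling), and for Cyp2d the WT libraries on PTU/LID (mean 1338 CPM) lie above those on chow (1157 CPM).

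Adjusted p-values below are Benjamini-Hochberg values of edgeR's quasi-likelihood test, adjusted over all 52606 regions or 11459 genes tested, and a member passed when its value was below 0.05. Log2 fold changes are given with their SE. The first comparison asked how the PTU/LID diet changed acetylation in WT liver. Cyp2d9, Cyp2d10 and Cyp2d26 rose and Cyp2c39 fell, so 4 of 41 genes passed, 9.76%, against 7.81% of all genes tested. Over all genes 3.82% were higher and 3.99% lower. At region level 8 of 260 passed, 3 higher and 5 lower, or 3.08% against 3.7% of all regions (1.81% higher and 1.9% lower). Both shares were near the background. The median log2 fold change was -0.00 over the 41 genes and -0.02 over all genes. Without libraries D, H and J, 6 genes (14.6%) and 18 regions (6.92%) passed, beside 19% of all genes and 9.11% of all regions.

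The region over the start of Cyp2d9, a male-biased steroid hydroxylase, was chr15:82452291-82453256, which runs from within the window printed above into the gene. It carried 25.3, 26.2 and 19.2 CPM in WT on chow and 38.5, 48.4 and 58.9 CPM in WT on PTU/LID. In KO it carried 11.8, 15.1 and 12.8 CPM on chow and 16.9, 27.9 and 17.1 CPM on PTU/LID. The 3 WT libraries on PTU/LID were the highest of all 12, and the KO libraries on chow the lowest, with no overlap between the diets in either genotype. The rise in WT was 1.07 ± 0.21 on the log2 scale (edgeR adjusted p = 0.00158). In KO the difference between diets was 0.65 ± 0.22 (edgeR adjusted p = 0.0625). The WT call held with each library left out in turn, with adjusted p from 0.00015 to 0.0316, and under every other setting. Over all 4 regions of Cyp2d9 (chr15:82452377-82456827) the levels were 105, 103 and 86.3 CPM in WT on chow and 131, 134 and 139 in WT on PTU/LID, a rise of 0.47 ± 0.14 (edgeR adjusted p = 0.0429). That gene-level call was lost without any 1 of libraries A, B, C, E and F, with adjusted p up to 0.18.

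The start region of its neighbour Cyp2d10, chr15:82405871-82407834, carried 42.4, 51.9 and 55.2 CPM in WT fed chow, 70.5, 85.9 and 73.7 in WT fed PTU/LID, 76, 66.6 and 62.8 in KO fed chow and 66.5, 79.2 and 65.5 in KO fed PTU/LID. WT on chow stood below the other 3 groups, which overlapped one another. The rise with diet in WT was 0.62 ± 0.17 (edgeR adjusted p = 0.027) and the KO difference 0.04 ± 0.16 (edgeR adjusted p = 0.929). The WT call was lost without any 1 of libraries A, B, E and F, with adjusted p up to 0.147. At gene level Cyp2d10 (chr15:82402845-82407253) rose by 0.37 ± 0.11 (edgeR adjusted p = 0.0436) and Cyp2d26 (chr15:82790107-82794452) by 0.38 ± 0.11 (edgeR adjusted p = 0.0361). Cyp2d26 had 114, 129 and 117 CPM in WT on chow and 159, 149 and 161 on PTU/LID, without overlap. The Cyp2d10 gene call was lost without any 1 of the 6 WT libraries (adjusted p up to 0.141) and that of Cyp2d26 without any 1 of libraries A, B, C, E and F (up to 0.13). With the regions inside the gene only, the gene-level rises were 1.06 for Cyp2d9, 0.61 for Cyp2d10 and 0.59 for Cyp2d26, all past the threshold. The other Cyp2d genes did not pass: Cyp2d22 gave 0.15 ± 0.12, Cyp2d11 0.11 ± 0.11, Cyp2d34 0.19 ± 0.11, Cyp2d40 0.15 ± 0.14 and Cyp2d12 -0.27 ± 0.14.

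Cyp2c39, a retinoic acid hydroxylase, fell in WT liver on PTU/LID. Its 9 regions summed to 268, 244 and 311 CPM in WT on chow and 209, 234 and 171 on PTU/LID, a change of -0.43 ± 0.12 (edgeR adjusted p = 0.0268). The listed gene runs over chr19:39347346-39569568, a span that also holds Cyp2c38, and 1 member region lay inside both and was given to Cyp2c38. Its regions that passed lay upstream of the second listed start. The region chr19:39501957-39502690, 8499 bp upstream of it, had 7.92, 13.5 and 14.5 CPM in WT on chow and 4.18, 4.74 and 4.52 on PTU/LID, with no overlap. It fell by 1.44 ± 0.28 on the log2 scale (edgeR adjusted p = 0.00187), and this call held in every alternative (adjusted p up to 0.0297). The region chr19:39505956-39507484, 4102 bp upstream, fell by 0.79 ± 0.19 (edgeR adjusted p = 0.0153; up to 0.135 without 1 of libraries A, C, E and F). The gene-level call was lost without library A, C or F, with adjusted p up to 0.177, and in a fit of the compared groups only.

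**Figure D2:**
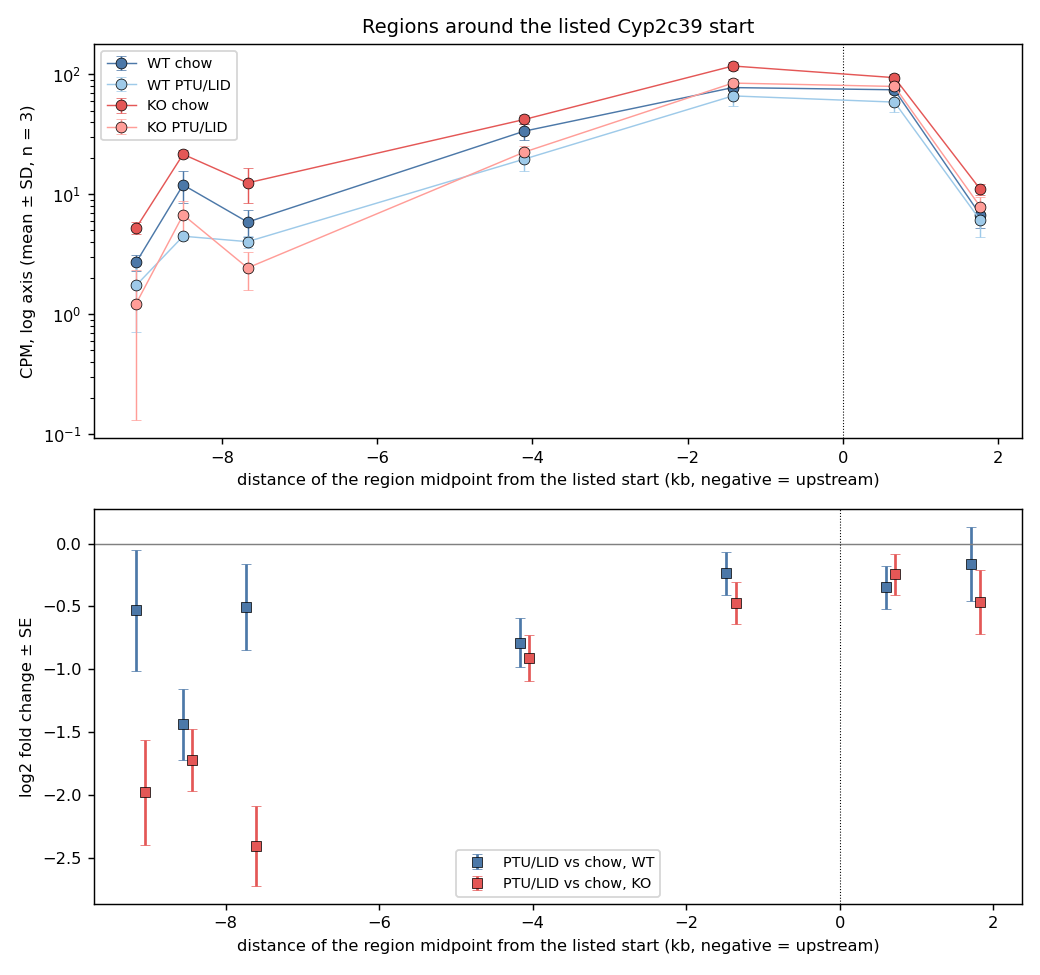
Cyp2c39 regions by distance of their midpoint from the second listed start. Above, mean CPM ± SD of 3 libraries in each group on a log axis; below, log2 fold changes ± SE for PTU/LID against chow in WT (blue) and KO (red), which reach -1.44 in WT and -2.41 in KO between 7668 and 8499 bp upstream and are closer to 0 at the start.

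Beyond the end of Cyp2a12, which hydroxylates testosterone and secondary bile acids, 2 regions fell in WT on PTU/LID. The region chr7:27047670-27048184, 11109 bp past the gene end, had 5.38, 7.18 and 6.12 CPM on chow and 2.39, 2.37 and 2.87 on PTU/LID, a fall by 1.28 ± 0.33 (edgeR adjusted p = 0.0203). Its neighbour chr7:27048407-27048980 had 6.97, 9.39 and 8.10 CPM against 5.38, 3.01 and 2.67, a fall by 1.2 ± 0.31 (edgeR adjusted p = 0.0218). Both were separate between the diets, and both were lost without 1 of libraries B, C, E and F (adjusted p up to 0.0907 and 0.157). Cyp2f2, the naphthalene-metabolising enzyme, had 1 region, chr7:27120240-27120739, 534 bp past its start, that fell from 9.5, 9.39 and 6.94 CPM to 2.39, 3.45 and 4.31, by 1.28 ± 0.31 (edgeR adjusted p = 0.0147; up to 0.0628 without library A, B or E). The upstream region of Cyp2a5, the coumarin hydroxylase, chr7:26831025-26833832, rose from 41.5, 36.2 and 41 CPM to 41.2, 73.0 and 70.6, by 0.65 ± 0.18 (edgeR adjusted p = 0.0382). There library D lay among the chow libraries, and the call was lost without any 1 of libraries A, B, C, E and F (up to 0.213). With the mitochondrial share as a term the Cyp2d9 and Cyp2d10 gene calls were lost, under cyclic loess scaling those of Cyp2d10 and Cyp2d26. In a fit of the compared groups only, the calls of the Cyp2d10 start, the Cyp2a5 region and the second Cyp2a12 region were lost.

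The second comparison asked the same of KO liver. Cyp2c39 fell again and Cyp2w1 rose, 2 of 41 genes or 4.88%, against 7.59% of all genes (4.36% higher and 3.23% lower), and 12 of 260 regions passed, 5 higher and 7 lower, or 4.62% against 6.21% of all regions (3.28% higher and 2.94% lower). Without libraries D, H and J, 7 genes (17.1%) and 19 regions (7.31%) passed, beside 12.4% of all genes and 7.68% of all regions, so the gene share was below the background with all libraries and above it without these. The diets in WT and in KO share no library. Of the regions that passed, 5 were common to both, all in the same direction. They are 5 of the 8 in WT and 5 of the 12 in KO. Cyp2c39 was the gene common to both. The overlap over all genes and regions was not counted, so no background stands beside these.

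Cyp2c39 had 388, 375 and 367 CPM in KO on chow and 279, 263 and 251 in KO on PTU/LID, a change of -0.51 ± 0.11 (edgeR adjusted p = 0.00576). The groups did not overlap, and the call held under every alternative, with adjusted p from 0.0011 to 0.0435. Upstream of its second start, chr19:39502887-39503421 had 16.9, 11.4 and 9.17 CPM on chow and 3.32, 1.66 and 2.33 on PTU/LID, a fall by 2.41 ± 0.32 (edgeR adjusted p = 1.16e-06). The region at chr19:39501957-39502690 went from 22.1, 19.7 and 22.9 CPM to 9.21, 5.66 and 5.39, a fall by 1.72 ± 0.24 (edgeR adjusted p = 4.4e-06). The short region chr19:39501567-39501869 went from 5.08, 5.95 and 4.74 CPM to 0.767, 2.48 and 0.437, by 1.98 ± 0.42 (edgeR adjusted p = 0.00174), with a lowest count of 2. Without library K, at 2.48 CPM, that fall was 3.16. The region chr19:39505956-39507484 fell by 0.91 ± 0.18 (edgeR adjusted p = 0.000921). All 4 calls held under every alternative. The regions nearest the start did not pass: chr19:39508229-39510583, which ends inside the printed window, gave -0.47 ± 0.16 (edgeR adjusted p = 0.0828).

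The regions past the end of Cyp2a12 fell in KO as in WT. The region chr7:27047670-27048184 had 13.2, 12.8 and 11 CPM in KO on chow and 4.35, 4 and 4.23 on PTU/LID, a fall by 1.56 ± 0.26 (edgeR adjusted p = 9.11e-05), and this call held throughout. The next, chr7:27048407-27048980, fell by 0.90 ± 0.25 (edgeR adjusted p = 0.0212; up to 0.132 without library H, I, K or L, and 0.239 with the mitochondrial share as a term). Higher on the diet was the Cyp2a5 upstream region chr7:26831025-26833832, with 51.2, 67.4 and 62.4 CPM on chow and 96.9, 91.1 and 104 on PTU/LID, a rise of 0.69 ± 0.17 (edgeR adjusted p = 0.0102; up to 0.105 without library G or L). A region 8485 bp upstream of Cyp2b10, the phenobarbital-inducible CAR target, chr7:25888672-25889674, rose from 13.2, 15.8 and 15 CPM to 24.8, 27.2 and 26.1, by 0.83 ± 0.23 (edgeR adjusted p = 0.0205; up to 0.11 without library G, I, K or L). A region 17020 bp upstream of Cyp2d10, chr15:82423745-82424683, rose from 22.1, 17.5 and 20.3 CPM to 26.6, 39.2 and 33.5, by 0.74 ± 0.18 (edgeR adjusted p = 0.0083; up to 0.0997 without library H or K). Each of these 3 was separate between the diets, and each was lost with the mitochondrial share as a term.

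Regions of the epoxygenase genes Cyp2j5 (chr4:96621675-96622598, 5296 bp past its end) and Cyp2j11 (chr4:96325451-96326121, inside it) also rose, by 0.84 ± 0.21 (edgeR adjusted p = 0.00902) and 0.80 ± 0.25 (edgeR adjusted p = 0.0435). The Cyp2j5 call was lost without library H, I or J (adjusted p up to 0.0774) and that of Cyp2j11 without library G, H, I, K or L (up to 0.411), and both were lost with the mitochondrial share as a term. The Cyp2j11 call was also lost with DESeq2 (adjusted p = 0.0645), with a rise of 0.49 without library K. Without libraries D, H and J the Cyp2j5 difference was 0.53 (adjusted p = 0.15 by edgeR). Cyp2w1, which is expressed mainly outside adult liver, had 24.5, 21.3 and 20.6 CPM in KO on chow and 42.5, 29.6 and 28.0 on PTU/LID, a rise of 0.57 ± 0.17 (edgeR adjusted p = 0.038). In WT it had 22.5, 21.2 and 21.4 against 29.8, 28.4 and 33.6 CPM, a difference of 0.50 ± 0.18 (edgeR adjusted p = 0.0899). The KO call was lost without library G, H, I or J (up to 0.143), with the mitochondrial share as a term, in a fit of the compared groups only and without libraries D, H and J (0.37, adjusted p = 0.209 by edgeR). A region given to Cyp2d34, chr15:82640591-82641130, which lies in the Cyp2d13 pseudogene, fell by 0.74 ± 0.23 (edgeR adjusted p = 0.0445; up to 0.217 without library G, H, I, J or L). It was also lost with DESeq2, with the mitochondrial share as a term, in a fit of the compared groups only and without libraries D, H and J, and its adjusted p reached 0.267 over all alternatives.

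The third comparison set KO against WT on chow. Cyp2a12 and Cyp2c39 were higher, 2 of 41 genes or 4.88%, against 4.1% of all genes (2.54% higher), and 8 of 260 regions passed, 6 higher and 2 lower, or 3.08% against 2.43% of all regions (1.61% higher and 0.823% lower). The median log2 fold change was 0.14 over the 41 genes and -0.01 over all genes. Without libraries D, H and J, 6 genes (14.6%) and 12 regions (4.62%) passed, beside 9.72% of all genes and 4.37% of all regions. Left out singly, each of the 6 libraries brought the gene count to 0 or 1 and the region count to between 0 and 2. Of all genes 0.994% to 2.21% then passed, and of all regions 0.851% to 1.52%.

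Cyp2a12 (chr7:27029090-27036818) had 177, 166 and 185 CPM in WT on chow and 224, 238.9 and 251 in KO on chow. The groups were separate, with a difference of 0.43 ± 0.11 (edgeR adjusted p = 0.0318). Of its 9 regions, 2 lay inside the gene, and with those alone the difference was 0.25 (adjusted p = 0.377 by edgeR). Past its end, chr7:27047670-27048184 was higher in KO, 13.2, 12.8 and 11 against 5.38, 7.18 and 6.12 CPM, by 0.98 ± 0.26 (edgeR adjusted p = 0.0359). The next, chr7:27049168-27050541, was at 45.9, 52.5 and 53.5 CPM against 32.3, 31.7 and 35.2, higher by 0.61 ± 0.17 (edgeR adjusted p = 0.0403). Each of the 3 calls was lost without any 1 of the 6 chow libraries, with adjusted p up to 0.145, 0.128 and 0.158. Under cyclic loess scaling the gene calls of Cyp2a12 and Cyp2c39 were lost, with those of chr7:27049168-27050541, chr19:39508229-39510583 and the Cyp2b13 region. The mitochondrial share as a term ended those of chr7:27047670-27048184 and chr19:39502887-39503421. The Cyp2a12 gene call was also lost with regions within 10 kb and without regions inside other annotated genes.

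Cyp2c39 had 388, 375 and 367 CPM in KO and 268, 244 and 311 in WT, a difference of 0.46 ± 0.12 (edgeR adjusted p = 0.0266; up to 0.152 without library A, B, G, H or I). Of its regions, chr19:39502887-39503421 was higher by 1.11 ± 0.30 (edgeR adjusted p = 0.0352; up to 0.201 without library A, B, C, G or H) and chr19:39508229-39510583 by 0.59 ± 0.17 (edgeR adjusted p = 0.045; up to 0.242, lost without any 1 of the 6). The same upstream stretch of Cyp2c39 was therefore lower on the diet and higher in the knockout, from comparisons that share the chow libraries. At Cyp2b10, chr7:25894624-25895364, 2664 bp upstream of the start, had 9.82, 11.6 and 12.9 CPM in WT and 19.4, 26.2 and 20.5 in KO, without overlap, a difference of 0.93 ± 0.23 (edgeR adjusted p = 0.0207; up to 0.102 without library A, B, C, H or I). A region 15102 bp outside Cyp2a22, chr7:26915814-26917245, was higher by 0.80 ± 0.20 (edgeR adjusted p = 0.0275; up to 0.118 without the same 5 libraries). Lower in KO was the Cyp2d9 start region, by 0.82 ± 0.22 (edgeR adjusted p = 0.0374; up to 0.155 without library A, B, G, H or I). A 240 bp region inside Cyp2b13, chr7:26091094-26091333, was lower by 1.31 ± 0.37 (edgeR adjusted p = 0.0482; up to 0.197, lost without any 1 of the 6).

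**Figure D3:**
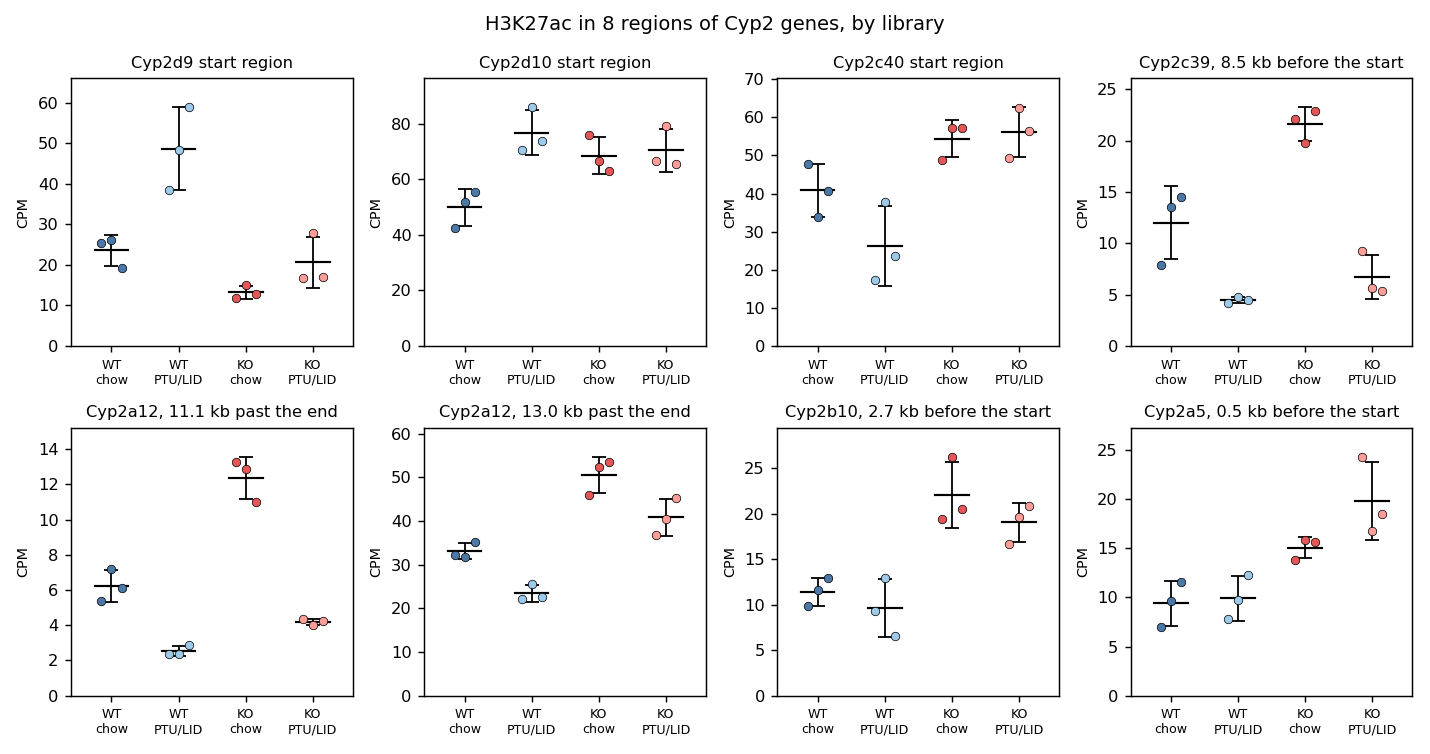
H3K27ac (CPM, linear axes from 0) in 8 member regions by group. Points are the 3 libraries, the line and bar the mean and SD; at the Cyp2d9 start the WT libraries on PTU/LID (38.5 to 58.9 CPM) are highest, and past the end of Cyp2a12 both PTU/LID groups are lower than chow of the same genotype.

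The last pairwise comparison set KO against WT on PTU/LID. The genes Cyp2a5, Cyp2a12, Cyp2b10, Cyp2b19, Cyp2c40, Cyp2c55, Cyp2c70 and Cyp2f2 were higher, 8 of 41 or 19.5%. Among all genes 6.67% passed in either direction and 5.34% were higher. Of the 260 regions 16 passed, 6.15%, against 3.86% of all regions, 15 of them higher (3.17% of all regions were higher) and 1 lower (0.698% of all). The median log2 fold change was 0.18 over the 41 genes and -0.02 over all genes. With scaling factors of the regions 4 genes passed, 3 of them higher, beside 5.19% of all genes. The share of higher among all genes that passed was then 67.1% in place of 80.1%. Without libraries D, H and J, 6 genes (14.6%) and 17 regions (6.54%) passed, beside 9.39% of all genes and 5.22% of all regions. In a fit of the compared groups only, 2 genes and 9 regions passed, with 3.23% of all genes and 2.53% of all regions. This comparison and the diet in WT share the 3 WT libraries on PTU/LID, so a low value in those enters both.

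Among the Cyp2c genes, Cyp2c40, a female-biased arachidonic acid hydroxylase, had 136, 137 and 124 CPM in WT fed chow, 82.3, 126 and 68.7 in WT fed PTU/LID, 138, 174 and 153 in KO fed chow and 164, 167 and 146.3 in KO fed PTU/LID. Libraries D and F were the lowest of all 12, and KO on PTU/LID lay above all of WT on PTU/LID, by 0.78 ± 0.16 (edgeR adjusted p = 0.0034; 0.0557 without libraries D, H and J together). At its start, chr19:39811770-39812838 had 17.3, 37.9 and 23.6 CPM in WT on PTU/LID and 49.4, 62.5 and 56.4 in KO, a difference of 1.08 ± 0.20 (edgeR adjusted p = 0.000764) that held under every alternative. Cyp2c55, another arachidonic acid oxidase, had 76.3, 56.2 and 42.5 CPM in WT on PTU/LID and 93.8, 107 and 105 in KO, a difference of 0.82 ± 0.15 (edgeR adjusted p = 0.00132) that held under every alternative run for it. None of its 3 regions lay inside the gene, so the fit with regions inside the gene only could not include Cyp2c55. Its 2 regions that passed, chr19:38998020-38999692 and chr19:39004541-39005758, lay 8163 and 1870 bp upstream of its start and were higher by 0.78 ± 0.18 (edgeR adjusted p = 0.00801; 0.117 without library F) and 0.86 ± 0.21 (edgeR adjusted p = 0.0113; up to 0.101 without library K, L or F). Cyp2c70, which makes muricholic acids from chenodeoxycholic and ursodeoxycholic acid in mice, had 69.6, 94.0 and 70.0 CPM against 108, 109 and 100, a difference of 0.43 ± 0.13 (edgeR adjusted p = 0.0373). It was lost without library D, J, K, L or F, with adjusted p up to 0.181.

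In the Cyp2a and Cyp2b clusters on chromosome 7, Cyp2a5 had 223, 363 and 335 CPM in WT on PTU/LID and 438, 458 and 468 in KO, separate and higher by 0.56 ± 0.14 (edgeR adjusted p = 0.0216; up to 0.0926 without library D, K or L). The region that overlaps its printed window, chr7:26834499-26835175, had 7.77, 9.69 and 12.3 CPM against 24.3, 16.7 and 18.5, higher by 0.96 ± 0.23 (edgeR adjusted p = 0.0108). That call was lost without library E. Upstream, chr7:26831025-26833832 was higher by 0.65 ± 0.18 (edgeR adjusted p = 0.0256; up to 0.157 without library D, K or L). Past the gene, chr7:26877996-26880266, 35867 bp from the end of Cyp2a5, and chr7:26915814-26917245, 15102 bp from that of Cyp2a22, were higher by 0.71 ± 0.20 (edgeR adjusted p = 0.0422; up to 0.191 without library D, K, L or F) and 0.73 ± 0.20 (edgeR adjusted p = 0.0313; up to 0.188 without library D, E, K or L). At the near copy Cyp2a4, a female-biased steroid hydroxylase, chr7:26306517-26307011, which also overlaps its window, had 4.18, 6.89 and 9.24 CPM against 14.8, 12.4 and 15.7, higher by 1.04 ± 0.26 (edgeR adjusted p = 0.014; up to 0.0897 without library D, E or L). The Cyp2a4 gene gave 0.63 ± 0.19 (edgeR adjusted p = 0.068), with library D at 121 CPM against 248 and 238 in its group mates. Cyp2a12 was higher by 0.45 ± 0.11 (edgeR adjusted p = 0.0168; up to 0.109 without library D, K or L). With the regions inside the gene only, the Cyp2a12 difference was 0.21 (adjusted p = 0.524 by edgeR). With those inside or within 10 kb it was 0.27 (0.314), and without regions inside other annotated genes 0.32 (0.154). Its downstream region chr7:27049168-27050541 had 22.1, 25.6 and 22.6 CPM against 36.8, 40.4 and 45.3 and was higher by 0.80 ± 0.17 (edgeR adjusted p = 0.00351). That last call held under every alternative. The neighbouring chr7:27048407-27048980 was higher by 1.06 ± 0.30 (edgeR adjusted p = 0.0383; up to 0.218 without library E, K, L or F).

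Cyp2b10 had 89.3, 130 and 72.7 CPM in WT on PTU/LID and 125, 163 and 150 in KO, overlapping through library E, a difference of 0.58 ± 0.16 (edgeR adjusted p = 0.034; up to 0.176 without library D, K, L or F). With the regions inside the gene only, the Cyp2b10 difference was 0.22 (adjusted p = 0.546 by edgeR). The call was also lost without regions inside other annotated genes (adjusted p = 0.0716 by edgeR) and with the mitochondrial share as a term (0.0511). Its region 2664 bp upstream had 9.26, 12.9 and 6.57 CPM against 16.6, 19.6 and 20.8 and was separate, with a difference of 1.0 ± 0.23 (edgeR adjusted p = 0.00827; up to 0.113 without library L or F). That region was thus higher in KO on both diets, in comparisons that share no library. The region 8485 bp upstream had 15.5, 19.8 and 8.21 CPM against 24.8, 27.2 and 26.1, higher by 0.85 ± 0.24 (edgeR adjusted p = 0.0299; up to 0.271 without library K, L or F, and a difference of 0.55 without F). Cyp2b19, known from skin keratinocytes, had 23.4, 37.6 and 27.5 CPM against 47.2, 46.2 and 45.5, higher by 0.64 ± 0.16 (edgeR adjusted p = 0.0192; up to 0.0955 without library D, K, L or F). Without regions inside other annotated genes the Cyp2b19 difference was 0.54 (adjusted p = 0.0506 by edgeR), and with regions within 10 kb 1.15 (0.00213). None of its 4 regions lay inside the gene, and all were nearer to it than to another protein-coding gene. Upstream of Cyp2b13, chr7:26053925-26057236 was higher by 0.57 ± 0.16 (edgeR adjusted p = 0.0272; up to 0.149 without library D, E, L or F), while the genes Cyp2b9 (0.27 ± 0.09) and Cyp2b13 (0.31 ± 0.09) did not pass.

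Cyp2f2 had 134, 143 and 121.8 CPM in WT on PTU/LID and 200, 171 and 162 in KO, separate, a difference of 0.42 ± 0.12 (edgeR adjusted p = 0.0365; up to 0.167 without library D, J, K or F). Its 2 regions that passed, chr7:27120240-27120739 and chr7:27123064-27123453, were higher by 1.11 ± 0.31 (edgeR adjusted p = 0.0306) and 1.2 ± 0.33 (edgeR adjusted p = 0.031), and were lost without single libraries of either group, with adjusted p up to 0.108 and 0.122. The gene calls of Cyp2a5, Cyp2a12, Cyp2b10, Cyp2c70 and Cyp2f2 were each lost under cyclic loess scaling, under the scaling of the regions and in a fit of the compared groups only, and that of Cyp2b19 in the last. With the regions inside the gene only, those of Cyp2a5, Cyp2c70 and Cyp2f2 were lost too. The fit of the compared groups also ended the calls of chr7:26831025-26833832 and chr7:26877996-26880266 at Cyp2a5, chr7:26915814-26917245 at Cyp2a22, chr7:27048407-27048980 at Cyp2a12, chr7:25888672-25889674 at Cyp2b10, chr7:26053925-26057236 at Cyp2b13 and both Cyp2f2 regions. Without libraries D, H and J together, the gene calls of Cyp2b19, Cyp2c40, Cyp2c70 and Cyp2f2 were lost. So were those of the regions at the starts of Cyp2a4 and Cyp2a5, the upstream regions chr7:26831025-26833832 of Cyp2a5 and chr7:26053925-26057236 of Cyp2b13, and both Cyp2f2 regions. Against this direction, the Cyp2d9 start region was lower in KO, 16.9, 27.9 and 17.1 against 38.5, 48.4 and 58.9 CPM, by 1.23 ± 0.20 (edgeR adjusted p = 0.000203). It held under every alternative, with adjusted p up to 0.00675. This region was lower in KO on both diets, and across the 2 genotype comparisons 4 regions passed in both in the same direction, 4 of the 8 on chow and 4 of the 16 on PTU/LID. Cyp2a12 was the gene that passed in both. Here too the overlap over all genes and regions was not counted, so it has no background.

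**Figure D4:**
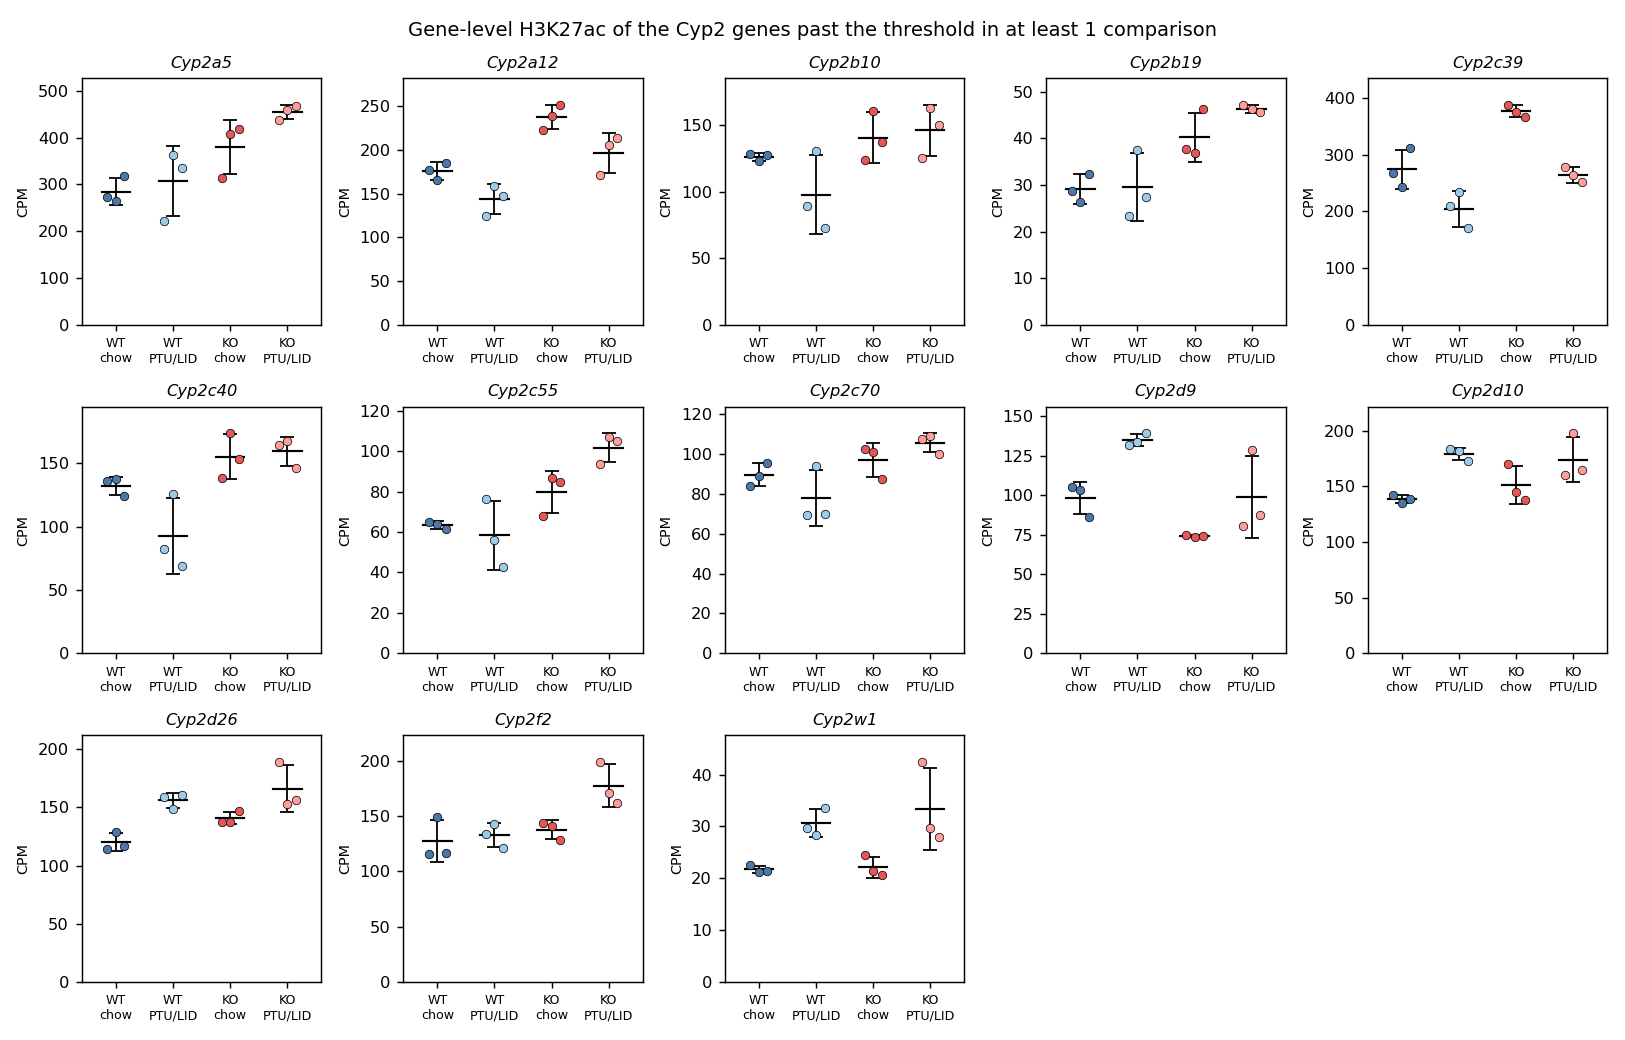
Gene-level H3K27ac (CPM, linear axes from 0) of the 13 Cyp2 genes that passed in at least 1 comparison. Points are the 3 libraries, the line and bar the mean and SD; Cyp2c40, Cyp2c55 and Cyp2b10 have their lowest libraries in WT on PTU/LID, and Cyp2c39 is highest in KO on chow (367 to 388 CPM).

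Genes that did not pass in any comparison included Cyp2e1, whose libraries spread widely (412, 417 and 559 CPM in WT fed chow; 353, 609 and 483 in WT fed PTU/LID; 479, 525 and 480 in KO fed chow; 314, 478 and 416 in KO fed PTU/LID). Its differences ran from -0.29 ± 0.19 (diet in KO) to 0.09 ± 0.19 (KO on chow). Cyp2r1, the vitamin D hydroxylase of liver, was lower on the diet in KO without overlap, at 51.3, 42.4 and 32.9 against 58.0, 54.7 and 53.3 CPM, but its difference of -0.41 ± 0.15 did not pass (edgeR adjusted p = 0.119). Cyp2c29, an arachidonic acid epoxygenase, gave 0.39 ± 0.24 for KO against WT on PTU/LID (edgeR adjusted p = 0.432), and Cyp2c69, a near copy of Cyp2c68 at its start, 0.93 ± 0.46 (edgeR adjusted p = 0.317). Cyp2c23, an epoxygenase, had log2 fold changes between 0.07 and 0.21 in the 4 pairwise comparisons. These values do not show that the genes were alike between groups.

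**Figure D5:**
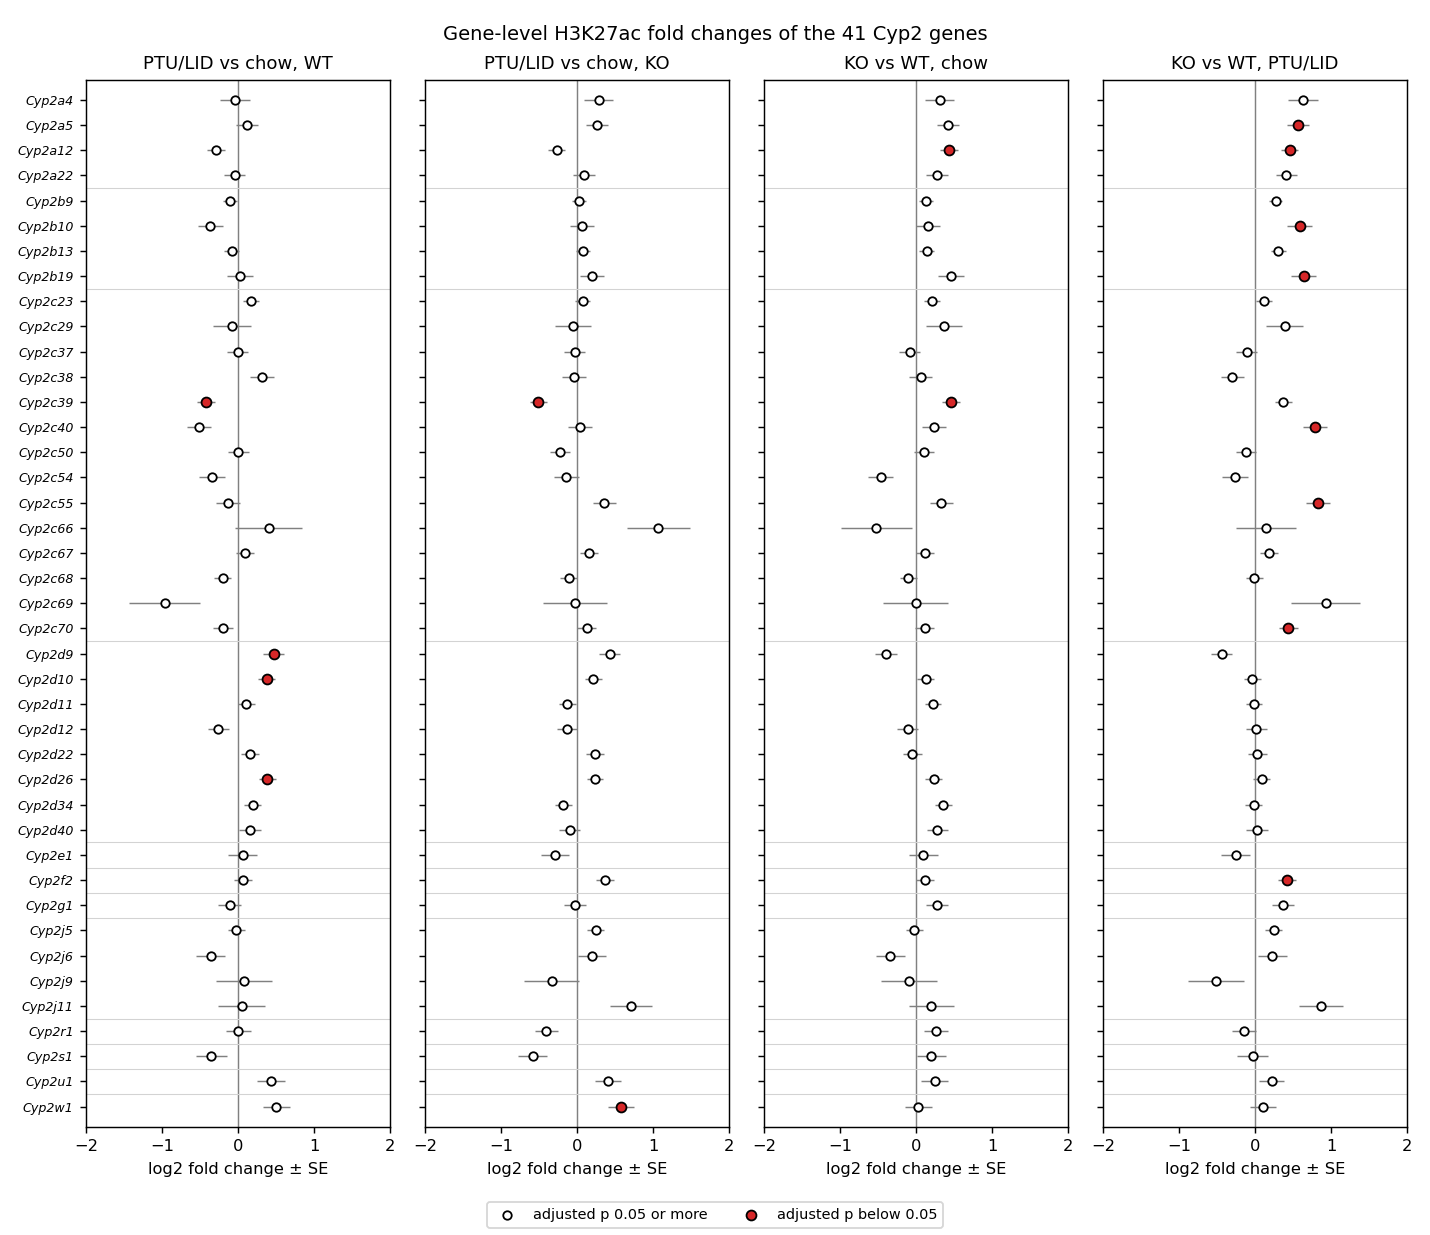
Log2 fold changes ± SE of gene-level H3K27ac for the 41 Cyp2 genes in the 4 pairwise comparisons. Filled points had an adjusted p below 0.05: 4, 2, 2 and 8 genes from left to right; the median over the 41 genes was -0.00, 0.06, 0.14 and 0.18.

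Whether the diet acted differently in the 2 genotypes was tested as an interaction. With edgeR, 0 of 41 genes and 0 of 260 regions passed, against 0.419% of all genes and 0.23% of all regions. At an unadjusted edgeR p below 0.05 there were 4 of 41 genes and 15 of 260 regions. Over all features, 1195 of 11459 genes and 4859 of 52606 regions reached that value, so the members did not stand out. DESeq2 also called 0 Cyp2 genes and 0 Cyp2 regions. The 4 genes were Cyp2c40 (0.55 ± 0.22), Cyp2c55 (0.49 ± 0.22) and Cyp2j6 (0.56 ± 0.27), where the difference between diets was more positive in KO, and Cyp2d34 (-0.37 ± 0.16). With all libraries, a difference between the diet effects in WT and in KO was therefore not shown for any Cyp2 gene. That includes genes whose diet effect passed in only 1 genotype. Without libraries D, H and J, 1 gene (2.44%) and 1 region (0.385%) passed, beside 1.88% of all genes and 0.709% of all regions. Leaving out 1 library gave 0 to 1 gene and 0 to 1 region.

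By position, the called regions were spread over gene bodies and flanks. For the diet in WT, 5 of 8 lay inside the gene and 3 within 1 kb of a listed start. Those inside include the Cyp2c39 regions upstream of its second listed start. For the diet in KO, 5 of 12 lay inside and 0 within 1 kb of a start, and all 5 inside regions were in the long Cyp2c39 span or in Cyp2j11. For the genotype on chow, 4 of 8 lay inside and 1 within 1 kb of a start, and on PTU/LID 4 of 16 and 5 of 16. Those inside on chow also include regions of the long Cyp2c39 span upstream of the second start. Of all 260 member regions 101 lay inside and 38 within 1 kb of a start. Over the 4 comparisons 28 of the 260 member regions, from 15 genes, passed at least once. The share of all regions that did so was not counted. In single comparisons 2.43% to 6.21% of all regions passed.

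Genes of the machinery around the Cyp2 enzymes were read from lists of known regulators and partners. Of 29 nuclear receptors and factors known to control Cyp2 genes, 3 rose and 4 fell with the diet in WT, where 3.82% of all genes were higher and 3.99% lower. Nr1i3, which encodes CAR, rose by 0.52 ± 0.13 (edgeR adjusted p = 0.0181) and Cebpa by 0.57 ± 0.14 (edgeR adjusted p = 0.017). The 4 that fell were Prlr and Ghr, the prolactin and growth hormone receptors, Stat5a, a factor downstream of them, and the repressor gene Bcl6. Prlr fell by 0.60 ± 0.14, Stat5a by 0.70 ± 0.17, Ghr by 0.48 ± 0.12 and Bcl6 by 0.34 ± 0.10, with edgeR adjusted p from 0.011 to 0.034. In KO the diet raised Ppargc1a, a coactivator, by 0.46 ± 0.12 and lowered Nr3c1, the glucocorticoid receptor, by 0.41 ± 0.10 and Bcl6 by 0.33 ± 0.10. On chow 3 of 29 were higher in KO (2.54% of all genes), Bcl6 (0.45 ± 0.10), Foxa2 (0.43 ± 0.09) and Onecut1 (0.51 ± 0.11). On PTU/LID 6 of 29 were higher in KO (5.34% of all genes), among them Stat5b (0.61 ± 0.10), Stat5a (0.90 ± 0.17), Prlr (0.79 ± 0.14), Bcl6 (0.46 ± 0.10) and Nr1i2, which encodes PXR (0.79 ± 0.17). Ghr (0.05 ± 0.12) and Cux2 (0.26 ± 0.36) did not pass there, nor did Stat5b (-0.26 ± 0.10) and Cux2 (-0.46 ± 0.36) with the diet in WT. The median over the list was -0.01, -0.00, 0.17 and 0.17 in the 4 comparisons, beside -0.02, -0.01, -0.01 and -0.02 over all genes.

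Of 17 electron donors and heme genes tested, Cyb5r3, a cytochrome b5 reductase, rose (0.34 ± 0.10) and the heme oxygenases Hmox1 (-0.49 ± 0.15) and Hmox2 (-0.41 ± 0.12) fell with the diet in WT. Fech, which inserts iron into heme, rose with the diet in KO (0.34 ± 0.10), and the heme-binding Pgrmc2 was higher in KO on PTU/LID (0.59 ± 0.17). Of 35 P450 genes of other families, 5 fell with the diet in WT, 4 rose and 5 fell with the diet in KO, 7 were higher in KO on chow, and 8 were higher and 2 lower in KO on PTU/LID. The list medians were -0.11, -0.05, 0.18 and 0.28, beside -0.02, -0.01, -0.01 and -0.02 over all genes. Of 13 pericentral genes, 1 fell with the diet in WT, 3 (Lgr5, Gulo and Lect2) fell with the diet in KO, and 1 and 2 were higher in KO on chow and on PTU/LID. Of 15 periportal genes, 2 rose with the diet in WT, 3 rose and 1 fell with the diet in KO, and 2 were higher in KO on PTU/LID. These counts stand beside 3.82% of all genes higher and 3.99% lower with the diet in WT, 4.36% and 3.23% with the diet in KO, and 2.54% and 5.34% higher in KO on chow and on PTU/LID, where 1.33% were lower. Cyp27a1 stands in both the pericentral and the P450 list.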

How the data were processed

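The authors deposited 1 table of raw read counts for 52645 regions in 12 H3K27ac libraries from mouse liver. Per the submitters' processing notes, the tools were MACS2 2.1.1, Bowtie2 2.2.1, bedtools 2.26.0, bcl2fastq 2.17.1.14 and Picard 2.8.1, with the build mm10. The sources used here do not give how the shared regions were made, or whether replicates were pooled for them. The 4 input libraries were not analysed here. Region lengths in bp are those of the deposited table.

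Each region was given to the protein-coding gene that holds its midpoint (the shortest where several do) or to the nearest one within 50 kb, with gene positions of RefSeq on GRCm38.p6. Gene counts are sums over a gene's regions. Counts were scaled with TMM factors and filtered with a minimum count of 10. They were tested with edgeR 4.0.16 (R 4.3.3, limma 3.58.1) by its quasi-likelihood test over all 4 groups at once, and p-values were adjusted by Benjamini-Hochberg over all features, with a threshold of 0.05. Gene CPM and region CPM cannot be set against each other, since they are relative to the counts in genes and in all regions. The code was tested on simulated data. Alternatives were DESeq2 1.42.0, cyclic loess, other filters and gene windows, the mitochondrial share as a term, a fit of the compared groups only and leaving out libraries. Promoter windows were aligned with Biopython 1.88.

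Total counts ran from 2965505 to 7416187 a library. PCR duplicates cannot be seen in such counts. The SE and p-values rest on the spread among libraries and not on counting error alone. Any Cyp2 gene with a region could be named. Full statistics were given for members that passed in at least 1 comparison, at most 10 genes, or 5 regions in each direction, by p, with the strongest gene and region of each subfamily and up to 4 members of each list that passed. Further regions that passed were named after their values were seen. The members and lists were chosen with earlier results of these data known. Some members of the lists are not reported here.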

Additional observations from a re-analysis of the deposited data

How the results depend on the processing

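Of 60 single Cyp2 calls in the 4 pairwise comparisons, 12 stayed past the threshold under every alternative run, 47 were lost when 1 library was left out, 39 were lost under another setting and 0 reversed. With 3 libraries a group, leaving 1 out gave 0 to 4 genes and 3 to 13 regions for the diet in WT (4 and 8 with all libraries), 1 to 5 and 7 to 16 for the diet in KO (2 and 12), 0 to 1 and 0 to 2 for KO against WT on chow (2 and 8), 3 to 12 and 6 to 19 for KO against WT on PTU/LID (8 and 16), and 0 to 1 and 0 to 1 for the interaction (0 and 0). In the same fits and order, 2.93% to 14%, 4.09% to 9.83%, 0.994% to 2.21%, 3.18% to 8.94% and 0.131% to 0.785% of all genes passed. Of all regions, 1.27% to 6.86%, 3.41% to 6.84%, 0.851% to 1.52%, 1.77% to 4.94% and 0.0627% to 0.395% passed.

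The counts that follow are of member genes and regions, with the share that passed over all genes or regions in brackets. Without libraries D, H and J, the diet in WT gave 18 regions (9.11%) and the diet in KO 7 genes (12.4%) and 19 regions (7.68%). KO against WT on chow gave 6 genes (9.72%), and the interaction 1 gene (1.88%) and 1 region (0.709%). In fits of the compared groups only, the diet in KO gave 1 gene (8.43%). KO against WT gave 6 genes (10.5%) and 13 regions (4.82%) on chow, and 2 genes (3.23%) and 9 regions (2.53%) on PTU/LID. With the mitochondrial share as a term, KO against WT on chow gave 5 genes (9.63%) and 14 regions (4.99%). Under cyclic loess, KO against WT gave 0 genes on chow (3.53%) and 4 on PTU/LID (5.15%), and the interaction 1 region (0.496%). For KO against WT on chow, regions within 10 kb gave 1 gene (3.72%), and leaving out regions inside other annotated genes 1 (4.08%). For KO against WT on PTU/LID, DESeq2 gave 13 genes (7.72%), regions inside the gene only 2 (4.93%) and the scaling of the regions 4 (5.19%). The cause was not tested. Over all genes, a fit of the compared groups only gave 1204 in place of 470 on chow and 367 in place of 764 on PTU/LID. No paired analysis was possible because the H3K27ac groups share no library number. Depth limits the smallest regions, whose lowest member count was 2.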
